A study of Mus musculus with 18 samples.

Results

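The subject is the set of genes that encode the subunits of oxidative phosphorylation, in the nuclear and in the mitochondrial genome, in mouse mammary epithelial organoids. Members were chosen by gene symbol alone: the Nduf subunits of complex I, Sdha to Sdhd of complex II, Uqcr genes of complex III, Cox4 to Cox8 genes of complex IV, Atp5 genes of complex V, and the protein-coding genes of mitochondrial DNA, without pseudogene names. The Torin table held 99 members among 56893 features, of which 86 were nuclear-encoded and 13 mitochondrially encoded. The estradiol table held 96 among 56691 features, 83 nuclear-encoded and 13 mitochondrially encoded.

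Complexes I to IV of the inner mitochondrial membrane pass electrons from NADH and succinate to oxygen and, except for complex II, pump protons, and complex V, the ATP synthase, uses the proton gradient to make ATP. Most subunits are nuclear-encoded and imported, while mitochondrial DNA encodes the hydrophobic cores of every complex but complex II, and both sets meet in the same complexes. In growing tissues such as mammary epithelium the mTOR kinase is known to influence mitochondrial protein synthesis and biogenesis, and estrogen receptors are transcription factors of the luminal cells.

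RNA was polyadenylated, from wild-type nulliparous C57BL/6 mice, with 3 libraries per group and 18 in all. In the first experiment, organoids from mice of about 24 weeks had received 10 nM estradiol or its ethanol vehicle for 11 days. In the second, organoids from mice of about 15 weeks had received Torin 1 at 100 nM, which blocks the kinase mTOR, or DMSO, in an arm named D6 and an arm named D12, and all were collected after 18 days of culture. The groups were therefore estradiol against ethanol, Torin D6 against DMSO D6, and Torin D12 against DMSO D12. Sample titles give 6 days of treatment to D6 and 12 days to D12, the series design gives the reverse, and each arm also carries its own batch tag, so that length, start and batch of treatment cannot be told apart between arms. Nothing in the labels says that replicates came from separate animals, so p-values measure the spread between these libraries, which may be technical.

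Library totals lay between 20637473 and 24312079 counts for estradiol and ethanol, and between 23239364 and 28910688 counts for Torin and DMSO. Nuclear-encoded members took 0.78 to 0.8304% of the counts of estradiol and ethanol libraries and 1.129 to 1.374% of those of Torin and DMSO libraries. Mitochondrially encoded members took 3.664 to 4.202% and 1.151 to 1.462%. The 2 experiments were processed in separate tables, and these levels were not compared between them. The third Torin library of each arm stood apart: cytosolic ribosomal protein genes took 3.463% of its counts in D6 and 3.385% in D12, against 2.047 to 2.692% in the other 10 libraries of that experiment. In both of these libraries nuclear-encoded members took 1.374% of counts, the highest share in the experiment, and the third library was the highest of its group for 64 of 82 nuclear-encoded members in Torin D6 and for 57 of 82 in Torin D12. Counts of Torin calls are therefore also given without these 2 libraries, an alternative chosen after seeing the data. The plot of library shares shows this spread. Summed markers of mammary epithelium reached 5000 to 11900 CPM (counts scaled to a common library total), those of endothelium 4.11 to 14.1 CPM, of immune cells 1.73 to 12.1 CPM, and of adipocytes at most 1.13 CPM. Those of fibroblasts reached 251 to 1190 CPM and those of striated muscle 14.3 to 56.3 CPM.

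**Figure D1:**
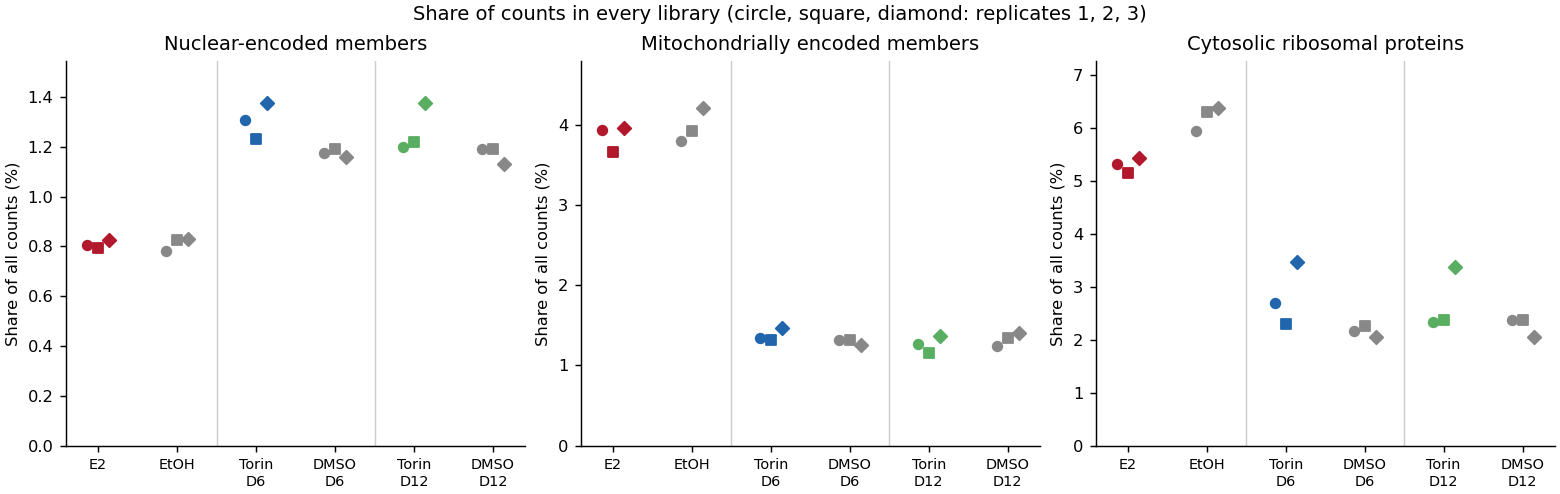
Share of all counts (%) in each library taken by nuclear-encoded members, mitochondrially encoded members and cytosolic ribosomal protein genes, by group. Points are single libraries and the third Torin libraries (diamonds) carried the highest nuclear-encoded and ribosomal protein shares of the Torin experiment.

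A gene was tested where it passed edgeR's filter on low counts: 92 members were tested in the estradiol experiment and 95 in the Torin experiment. Rose and fell refer to genes with a Benjamini-Hochberg adjusted p under 0.05 over all genes tested, 15358 and 18112, in edgeR's quasi-likelihood test. The untested members were Cox7b2, Cox8b and Cox8c, tissue-restricted subunits of complex IV, in both experiments, with Cox6a2 in the estradiol experiment and Cox6c2 in the Torin experiment. Their total over all libraries of an experiment was 21 counts at most. Fold changes are log2 values with the standard error (SE) of the fit, treated minus vehicle.

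Promoter sequence is shown for 3 members whose windows hold the letters bound by nuclear respiratory factor 1 (NRF1), a known activator of respiratory chain genes: Ndufa6, which fell in every comparison, Ndufa11, which rose in D6, and Uqcrc1, which rose in D12. The windows, from RefSeq on GRCm38.p6, run from 250 bases before to 50 after the gene's start, 5′ to 3′ on the gene's strand, at chr15:82354242-82354541 (minus strand), chr17:56717512-56717811 (plus strand) and chr9:108936398-108936697 (plus strand), and capitals mark matches on either strand to the NRF1 palindrome with the sixth base left free.
Ndufa6: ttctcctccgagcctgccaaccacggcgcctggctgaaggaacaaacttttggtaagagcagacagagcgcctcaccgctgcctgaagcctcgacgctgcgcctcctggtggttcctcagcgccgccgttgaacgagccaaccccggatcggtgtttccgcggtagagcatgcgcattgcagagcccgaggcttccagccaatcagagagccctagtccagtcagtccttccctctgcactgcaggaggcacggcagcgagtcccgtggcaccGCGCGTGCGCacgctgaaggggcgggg
Ndufa11: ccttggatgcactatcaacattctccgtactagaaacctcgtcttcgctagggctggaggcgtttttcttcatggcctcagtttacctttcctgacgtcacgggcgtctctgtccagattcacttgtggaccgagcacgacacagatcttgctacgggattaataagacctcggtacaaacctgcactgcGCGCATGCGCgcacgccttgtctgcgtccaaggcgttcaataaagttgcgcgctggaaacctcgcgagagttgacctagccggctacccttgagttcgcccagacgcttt
Uqcrc1: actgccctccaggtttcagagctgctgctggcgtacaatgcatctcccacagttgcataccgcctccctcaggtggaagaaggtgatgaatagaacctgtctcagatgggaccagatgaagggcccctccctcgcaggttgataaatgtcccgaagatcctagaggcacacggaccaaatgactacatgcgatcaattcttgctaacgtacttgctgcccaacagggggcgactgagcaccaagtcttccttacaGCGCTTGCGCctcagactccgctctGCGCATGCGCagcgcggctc

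Windows were found for 70 of the 86 nuclear-encoded members. This relaxed NRF1 motif, searched on both strands, was in 17 of the 70 (24.3%), against 4.78% of 27025 RefSeq promoters, and the exact NRF1 palindrome, every match of which is also a match of the relaxed motif, in 5 (7.14%), against 0.977%. The ETS letters CCGGAAG, as bound by GABP, were in 16 (22.9%) against 9.12% of all promoters, and the YY1 letters AAGATGGCG in 6 (8.57%) against 1.49%. The core letters of the hypoxia response element, ACGTG, were in 19 (27.1%) against 19.7%. Among members with a window, the relaxed NRF1 motif was in 2 of the 13 that rose and 2 of the 9 that fell in D6, and in 1 of the 17 that fell under estradiol. A match of letters is a description and not a binding site.

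Under estradiol, many subunits were slightly lower, most of all in complexes III and IV. Among nuclear-encoded members 23 of 79 fell and 2 rose, whereas of all genes tested 34% changed, 16.6% falling and 17.4% rising. Groups did not overlap for 39 of the 79, against 46.4% of all genes tested. Their median log2 fold change was -0.08, against -0.01 over all genes tested. It was -0.05 without the second estradiol library, and without the filter on low counts it was -0.05 against -0.04 over all genes. Among 7285 genes expressed at the members' level, 18.3% fell and 25.1% rose. Summed over nuclear-encoded members, the share of all counts, before TMM scaling, overlapped between groups. It was 0.8072, 0.7946 and 0.8264% in estradiol libraries against 0.78, 0.8242 and 0.8304% in ethanol libraries. In bulk RNA, fewer cells of a type and less RNA per cell cannot be told apart. Cytosolic ribosomal protein genes fell too, 77 of 80 with a median of -0.32, and fibroblast markers summed to 390 CPM (354 to 423) in estradiol libraries against 264 CPM (251 to 279) in ethanol libraries, with 5 of 6 markers higher and none at 0. Striated muscle markers summed to 16.6 CPM (14.8 to 17.9) in estradiol libraries against 28.2 CPM (26.8 to 29.1) in ethanol libraries, with 6 of 6 lower and none at 0. Their part in the result was not tested. The count of falls was 14 with gene-length offsets and 11 with limma on the authors' normalized values.

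Complex IV carried the most falls under estradiol. There 7 of 15 nuclear-encoded members fell and none rose, with a median of -0.15, and with the mitochondrially encoded subunits included 10 of 18 fell. These falls are 46.7% and 55.6%, against 16.6% of all genes tested. Cox4i2, an alternative isoform of the Cox4 subunit known to be induced by low oxygen, had 1.62, 0.923 and 1.69 CPM in estradiol libraries, against 4.07, 4.24 and 2.92 CPM in ethanol libraries. Every estradiol library lay under every ethanol library. Its log2 fold change was -1.41 (SE 0.25, edgeR adjusted p = 0.000526), the largest fall of any member. Atp5mc2, a further gene for subunit c of complex V, had the next lowest value (log2 -0.70, edgeR adjusted p = 0.0615) and did not pass. The ubiquitous partner of Cox4i2, Cox4i1, had 302, 312 and 311 CPM in estradiol libraries, against 302, 333 and 317 CPM in ethanol libraries, and the groups overlapped.

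Other subunits of complex IV moved less. Cox7a2l, known as a supercomplex factor, had 188, 184 and 191 CPM with estradiol and 229, 237 and 225 CPM with ethanol, without overlap. Its function in these mice was not measured. Cox7a2l fell by 0.29 on the log2 scale (SE 0.04, edgeR adjusted p = 5.6e-05). Cox7a2 fell by 0.24, Cox7c by 0.23, Cox8a by 0.22 and Cox6c by 0.15 on the log2 scale. Cox6b2, a low-level isoform known from testis, had 1.57, 2.03 and 1.93 CPM with estradiol and 2.99, 2.39 and 3.11 CPM with ethanol. Its call (log2 -0.61, SE 0.22, edgeR adjusted p = 0.04) was lost without any 1 of 5 libraries, namely the first or the third ethanol library or any estradiol library. Its partner Cox6b1 did not pass, nor did Cox6a1 and Cox7b, with log2 values of -0.04, -0.08 and -0.11.

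Complex III had 4 falls and 1 rise among 8 nuclear-encoded members, or 50% and 12.5%, against 16.6% and 17.4% of all genes tested. Uqcrh, the hinge subunit next to cytochrome c1, had 127, 120 and 126 CPM in estradiol libraries against 152, 155 and 153 CPM in ethanol libraries. The groups were well apart, with a log2 fold change of -0.31 (SE 0.042, edgeR adjusted p = 5.32e-05). The Rieske iron-sulfur protein Uqcrfs1 fell by 0.18, the core protein Uqcrc2 by 0.17 and the small subunit Uqcr11 by 0.14 on the log2 scale. Uqcrq, which contacts cytochrome b, went the other way, with 64.7, 62.6 and 60.5 CPM with estradiol and 56.8, 58.6 and 56.1 CPM with ethanol. The rise was small (log2 0.13, SE 0.045, edgeR adjusted p = 0.0372) and was not called in DESeq2 or without any 1 of 4 libraries (the first or the third ethanol, the first or second estradiol).

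In complex I, 7 of 35 nuclear-encoded members fell and 1 rose. That is 20% falling, near the 16.6% of all genes tested, and 2.86% rising, against 17.4%. Ndufa6, an accessory subunit of the matrix arm, had 49, 50.7 and 48.7 CPM in estradiol libraries, against 71.5, 68.3 and 67.5 CPM in ethanol libraries. These groups were far apart, and the log2 fold change of -0.48 (SE 0.045, edgeR adjusted p = 1.44e-06) had the lowest p of any member in this comparison. Ndufv3, an accessory subunit of the NADH-binding module, had 40.4, 41 and 40.1 CPM with estradiol and 49.5, 53.8 and 50.8 CPM with ethanol (log2 -0.34, SE 0.05, edgeR adjusted p = 9.26e-05). Ndufv1, which binds NADH and FMN in the same module, was instead higher at 85.6, 80.2 and 78.3 CPM with estradiol, against 73.3, 73.5 and 72.2 CPM with ethanol. It rose by 0.16 on the log2 scale (SE 0.045, edgeR adjusted p = 0.0154), a call lost without the first estradiol library. The membrane arm subunits Ndufb11, Ndufb5 and Ndufb8 fell by 0.26, 0.22 and 0.12.

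Complexes II and V moved little. Sdhc, a membrane anchor of succinate dehydrogenase, had 110, 116 and 115 CPM with estradiol and 119, 129 and 127 CPM with ethanol. Its fall (log2 -0.14, SE 0.046, edgeR adjusted p = 0.033) was not called in DESeq2 or without any 1 of 5 libraries, the first ethanol library being the exception. Sdha, Sdhb and Sdhd had log2 values of 0.03, 0.11 and -0.08 and did not pass. Of 15 nuclear-encoded members of complex V only Atp5f1c, the central stalk subunit, and Atp5mg, a membrane subunit, fell, by 0.23 and 0.18 on the log2 scale. That is 13.3% falling, against 16.6% of all genes tested. Atp5f1c had 166, 164 and 168 CPM with estradiol and 197, 193 and 194 CPM with ethanol. Atp5if1, the inhibitor of the ATP synthase, is listed there under an older symbol outside the rule and fell by 0.19. The older symbols Atp5s and Atp5sl brought in Dmac2l and Dmac2, assembly factors rather than subunits, which fell by 0.46 and 0.29.

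Among the 13 mitochondrially encoded members under estradiol, 5 fell and 1 rose. That is 38.5% and 7.69%, against 16.6% and 17.4% of all genes tested, and 18.3% and 25.1% at the nuclear-encoded members' level. The falls were the 3 subunits of complex IV and the 2 of complex V. mt-Co1, the catalytic subunit of complex IV, had 13100, 12000 and 12900 CPM in estradiol libraries, against 14800, 14900 and 15500 CPM in ethanol libraries. It fell without overlap (log2 -0.25, SE 0.036, edgeR adjusted p = 7.13e-05). mt-Co2 and mt-Co3 fell by 0.16 and 0.11 with overlapping groups, and mt-Atp8 and mt-Atp6, which share a transcript, by 0.15 and 0.11. All 7 subunits of complex I lay within a log2 of -0.06 and 0.09, and none passed (edgeR, none at unadjusted p under 0.05 either).

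mt-Cytb, the cytochrome b of complex III, had 3990, 3740 and 3950 CPM with estradiol and 3320, 3370 and 3640 CPM with ethanol. It was the 1 mitochondrial gene that rose (log2 0.18, SE 0.04, edgeR adjusted p = 0.0032). The 5 falls were less firm: 3 were left without the first ethanol library, 2 without the second or the third ethanol library or the first estradiol library, and 1 without the second estradiol library. Gene-length offsets left 1 fall, and limma on the authors' normalized values called none of the 13. Without the second estradiol library 2 mitochondrial genes rose. The count of nuclear-encoded rises, 2, was 1 without the first or the third ethanol library and 0 without the first estradiol library.

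**Figure D2:**
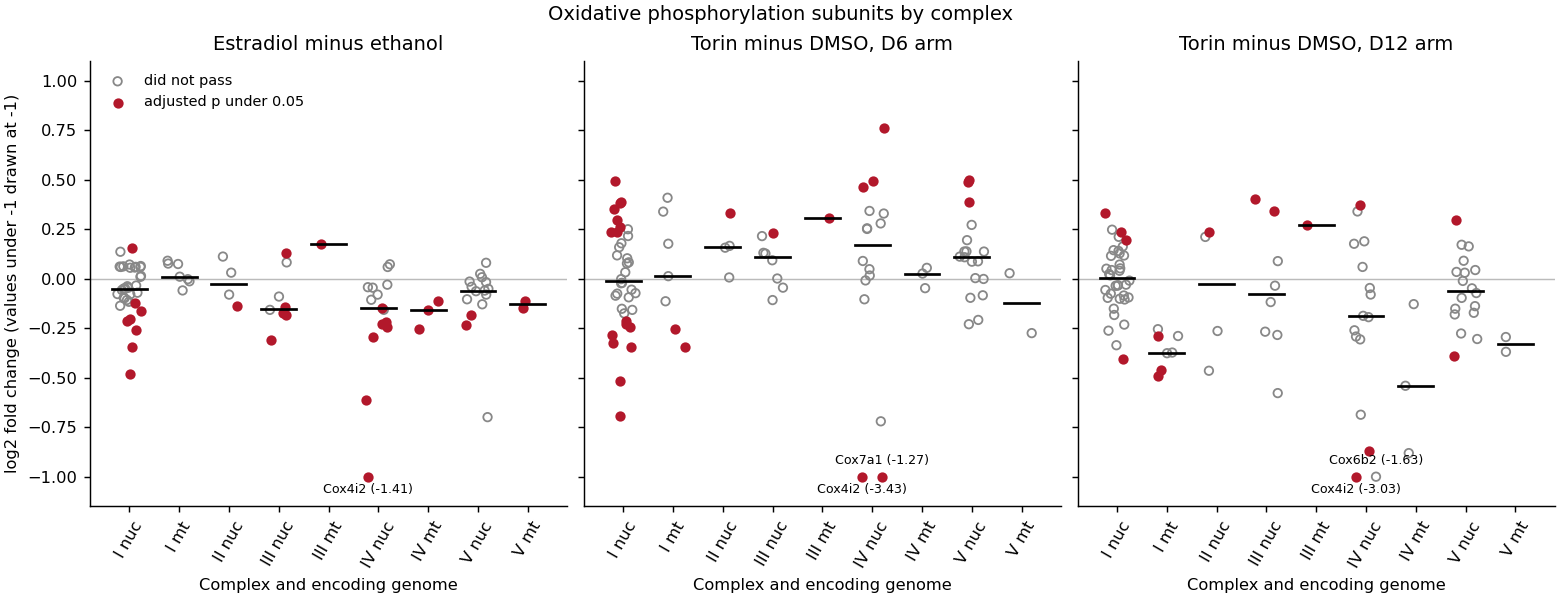
Log2 fold change of each tested member by complex and encoding genome (nuc, nuclear; mt, mitochondrial) for estradiol minus ethanol and Torin minus DMSO in both arms, 3 libraries per group; filled points passed an adjusted p of 0.05 and black lines are medians. Values under -1 are drawn at -1 with their value written, and under estradiol the medians of nuclear-encoded complexes III and IV lie at -0.15.

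With Torin in the D6 arm, subunits moved in both directions. Among nuclear-encoded members 16 of 82 rose and 10 fell, which is 19.5% and 12.2%. Of all genes tested 39.1% changed, 19.8% rising and 19.3% falling, and groups did not overlap for 48.5% of all genes tested and for 31 of the 82. The members' shares were below that background, and at the members' level 27.9% of 5016 genes rose and 21.9% fell. The median log2 fold change was 0.09, against 0.05 over all genes tested, and it was -0.04 without the third Torin libraries, when 17 rose and 20 fell (19.8% and 21.6% of all genes tested then). The median was 0.15 without the second Torin D6 library. The 10 falls were 6 without the second or the third DMSO D6 library and 5 without the first Torin D6 library. Fibroblast markers summed to 274 CPM (260 to 292) in Torin D6 libraries and 1000 CPM (839 to 1190) in DMSO D6 libraries, with 6 of 6 lower and none at 0. Immune markers, mainly Cd68, summed to 1.96 CPM (1.73 to 2.25) with Torin and 8.26 CPM (6.3 to 11.5) with DMSO, with 4 of 6 lower, 1 higher, 2 at 0 with Torin and 1 at 0 with DMSO. The part of either in these results was not tested.

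Complex I had calls in both directions in this arm, with 8 of 36 nuclear-encoded members up and 8 down. That is 22.2% each way, near the 19.8% and 19.3% of all genes tested. Ndufs1 and Ndufv1, core subunits of the NADH-oxidizing module, were among those that rose. Ndufs1 had 103, 98 and 110 CPM in Torin D6 libraries, against 86.4, 79 and 78.6 CPM in DMSO D6 libraries, without overlap (log2 0.35, SE 0.072, edgeR adjusted p = 0.00229). Ndufv1 rose by 0.26. The largest rise in complex I was that of Ndufa10, an accessory subunit of the membrane arm, with 141, 127 and 137 CPM with Torin and 97.3, 101 and 88.9 CPM with DMSO (log2 0.49, SE 0.098, edgeR adjusted p = 0.00195). All of its Torin libraries lay above all DMSO libraries.

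The nuclear-encoded falls of complex I in D6 were all in accessory subunits. Ndufv3 had 89.7, 96 and 80.1 CPM in Torin D6 libraries, against 129, 159 and 143 CPM in DMSO D6 libraries, a log2 of -0.70 (SE 0.1, edgeR adjusted p = 0.000276). Ndufa6 had 99.2, 95.9 and 116 CPM with Torin and 148, 156 and 141 CPM with DMSO, a log2 of -0.52 (SE 0.083, edgeR adjusted p = 0.000432). For both genes the groups did not overlap. Ndufb11, of the membrane arm, had 106, 107 and 113 CPM with Torin and 136, 148 and 131 CPM with DMSO (log2 -0.34, SE 0.066, edgeR adjusted p = 0.0015). Ndufa3, Ndufb8, Ndufc1, Ndufb10 and Ndufa5 fell by 0.21 to 0.32, and the other rises, Ndufa11, Ndufb7, Ndufa12 and Ndufb6, lay between 0.24 and 0.39.

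Complex IV held the extremes of the D6 arm. Cox4i2 had 0.305, 0.3 and 0.608 CPM in Torin D6 libraries, against 4.63, 5.23 and 3.32 CPM in DMSO D6 libraries. This rests on 33 counts over the 3 Torin libraries and 328 over the 3 DMSO libraries, and the log2 fold change was -3.43 (SE 0.37, edgeR adjusted p = 1.96e-05). Ndufa4, once assigned to complex I and now placed in complex IV, had 311, 308 and 390 CPM with Torin and 203, 207 and 185 CPM with DMSO. It was the largest rise of any member (log2 0.76, SE 0.1, edgeR adjusted p = 9.83e-05), and the third Torin library was its highest. The core-binding subunits Cox5b and Cox5a rose by 0.46 and 0.49.

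Cox7a1, the muscle-type isoform of Cox7a, had 0.95, 1.13 and 0.911 CPM in Torin D6 libraries, against 2.02, 2.46 and 2.74 CPM in DMSO D6 libraries (log2 -1.27, SE 0.29, edgeR adjusted p = 0.00418). Its ubiquitous partner Cox7a2 (log2 -0.10) did not pass, nor did Cox4i1 (0.255), Cox6a1 (0.33), Cox6b1 (0.25), Cox7b (-0.01) or Cox8a (0.05). Striated muscle markers summed to 27.3 CPM (22.4 to 30.1) in Torin D6 libraries and 41.9 CPM (26.5 to 54.3) in DMSO D6 libraries, with 3 of 6 markers lower and none at 0 in every library of a group. Their part in the Cox7a1 result was not tested. Cox7a2l (log2 0.34, edgeR adjusted p = 0.054) and the ATP synthase inhibitor Atp5if1 (log2 -0.21, edgeR adjusted p = 0.168) did not pass. Atp5if1 fell, without the third Torin libraries, by 0.36 (edgeR adjusted p = 0.000749).

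With all libraries, the calls in complex II and in nuclear-encoded complexes III and V of this arm were rises. With the third Torin libraries left out, complex III had 2 rises and 2 falls, Uqcr10 (log2 -0.24) and Uqcrb (-0.46), and complex V 3 rises and 4 falls, Atp5f1c (-0.19), Atp5pf (-0.24), Atp5mk (-0.25) and Atp5if1, while complex II had 2 rises. Sdhb, the iron-sulfur subunit of succinate dehydrogenase, had 232, 242 and 230 CPM in Torin D6 libraries, against 182, 193 and 184 CPM in DMSO D6 libraries (log2 0.33, SE 0.058, edgeR adjusted p = 0.000804). Sdha, Sdhc and Sdhd did not pass, with log2 values of 0.17, 0.01 and 0.16. In complex III Uqcrq rose by 0.23. In complex V the catalytic beta subunit Atp5f1b had 801, 727 and 931 CPM with Torin and 580, 600 and 557 CPM with DMSO (log2 0.50, SE 0.12, edgeR adjusted p = 0.00571). The groups of Atp5f1b did not overlap, and 2 genes for the membrane ring subunit c, Atp5mc1 and Atp5mc3, rose by 0.49 and 0.39.

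Mitochondrially encoded members in D6 gave 1 rise and 2 falls of 13, with log2 values from -0.34 to 0.41. That is 7.69% rising and 15.4% falling, under the 19.8% and 19.3% of all genes tested. mt-Cytb had 4600, 5070 and 4490 CPM in Torin D6 libraries, against 3880, 3780 and 3780 CPM in DMSO D6 libraries, without overlap (log2 0.31, SE 0.086, edgeR adjusted p = 0.014). mt-Nd5, of the membrane arm of complex I, fell by 0.25 (210, 239 and 256 CPM with Torin, 278, 288 and 274 CPM with DMSO), and mt-Nd6 fell by 0.34. mt-Nd6 lies on the other strand beside mt-Nd5, and whether the counting used strand is not given in the sources used here, so reads of the 2 genes may not be fully separated. The mt-Nd5 call was lost without the first or second DMSO D6 library, and both calls without the second DMSO D6 or the first Torin D6 library. With the third Torin libraries left out 5 fell and 1 rose, beside 21.6% and 19.8% of all genes tested then. Without the second Torin D6 library alone, 2 rose.

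**Figure D3:**
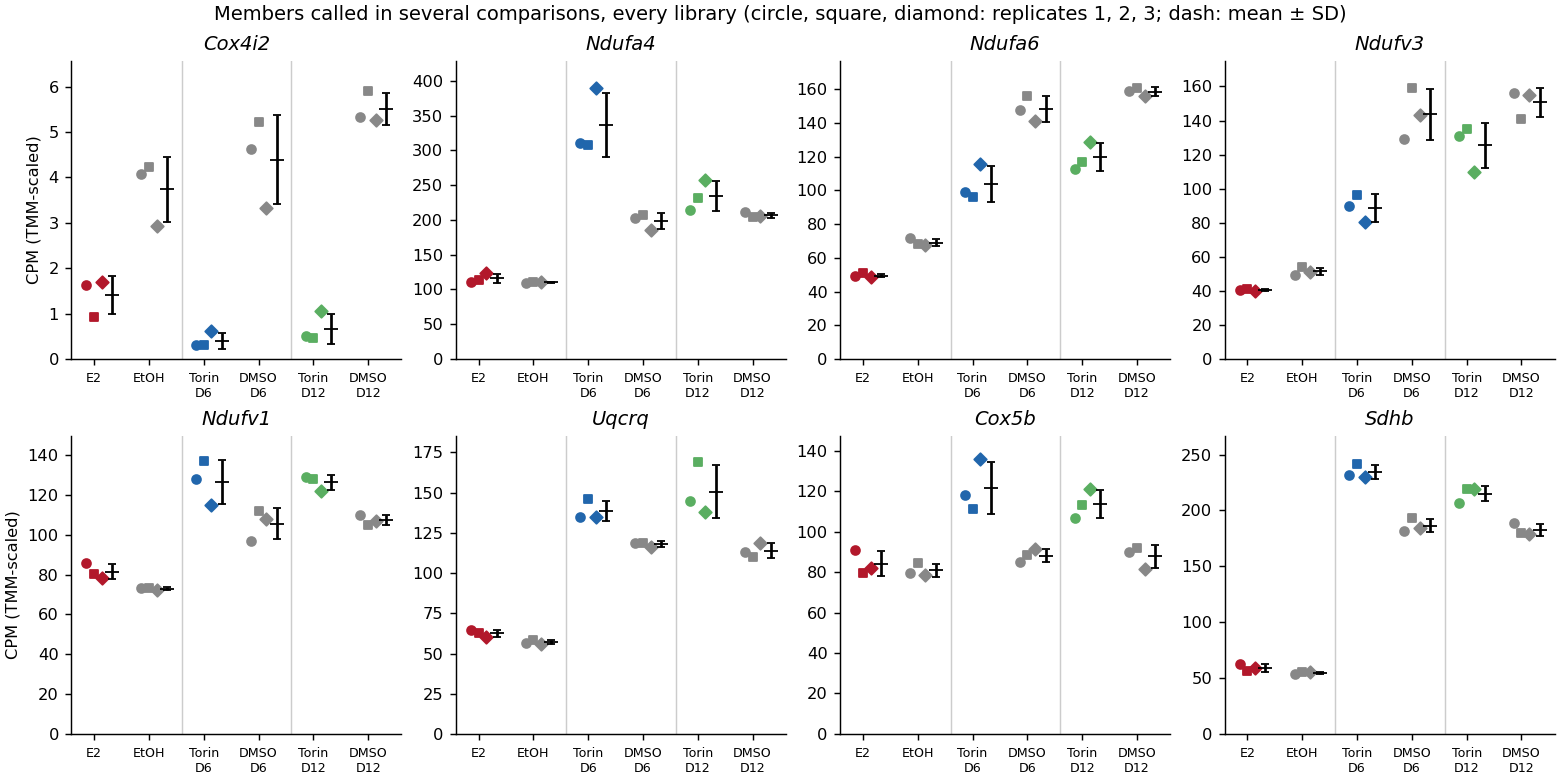
CPM in every library of 8 members named in several comparisons, by group, treated left of its vehicle; the dash and bar are mean ± SD of 3 libraries. Cox4i2, Ndufa6 and Ndufv1 did not overlap between treated and vehicle libraries in any of the 3 comparisons.

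In the D12 arm Cox4i2 and Ndufa6 were again lower, Uqcrq, Cox5b and Ndufa7 were higher, and most mitochondrially encoded members lay below 0. Among 82 nuclear-encoded members 8 rose and 4 fell, which is 9.76% and 4.88%. Of all genes tested 25.4% changed, 10.8% rising and 14.6% falling, and groups did not overlap for 43.7% of all genes tested and for 26 of the 82. The members' shares were below that background, and at the members' level 15.9% of 5016 genes rose and 19.8% fell. The median log2 fold change was -0.04. Over single omissions it ran from -0.12 without the third Torin D12 library to 0.02 without the first, and it was -0.11 without the third Torin libraries of both arms. Without the third Torin libraries of both arms 16 rose and 22 fell (17.5% and 18% of all genes tested then). The 8 rises were 4 without any 1 DMSO D12 library or the second Torin D12 library, 5 without the first Torin D12 library, and 13 without the third Torin D6 library, which enters the shared estimate of spread. The 4 falls were 2 without the first or the third DMSO D12, the first or second Torin D12 or the first Torin D6 library, 10 without the third Torin D12 library and 8 without the third Torin D6 library. Fibroblast markers were closer here, 860 CPM (675 to 972) with Torin and 906 CPM (849 to 981) with DMSO, while markers of mammary epithelium summed to 5470 CPM (5000 to 6330) with Torin and 8060 CPM (7920 to 8210) with DMSO, with 6 of 6 lower and none at 0. Immune markers summed to 2.22 CPM (2.08 to 2.34) with Torin and 10.6 CPM (8.04 to 12.1) with DMSO, with 3 of 6 lower, 2 higher, 2 at 0 with Torin and 1 at 0 with DMSO. Their part in these results was not tested.

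Cox4i2 had 0.494, 0.455 and 1.05 CPM in Torin D12 libraries, against 5.34, 5.91 and 5.26 CPM in DMSO D12 libraries. The groups were far apart (log2 -3.03, SE 0.35, edgeR adjusted p = 7.86e-05). Ndufa6 had 113, 117 and 129 CPM with Torin and 159, 161 and 156 CPM with DMSO, again without overlap (log2 -0.41, SE 0.082, edgeR adjusted p = 0.00366). Cox7a1 (log2 -0.87, SE 0.29, edgeR adjusted p = 0.0447) was no longer called without the third Torin libraries or, among single omissions, without any library but the second DMSO D12 or the third Torin D6. Striated muscle markers summed to 19.5 CPM (14.3 to 29.5) with Torin and 45.8 CPM (37.1 to 56.3) with DMSO, with 3 of 6 higher, 2 lower and none at 0 in a whole group, and their part in the Cox7a1 result was not tested. Atp5f1d, the delta subunit of the central stalk, had 123, 110 and 151 CPM with Torin and 168, 172 and 164 CPM with DMSO (log2 -0.39, SE 0.12, edgeR adjusted p = 0.031), and lost its call without any 1 of 6 libraries: each DMSO D12 library, the first or second Torin D12 and the first Torin D6 library. Its log2 value without the third Torin libraries was -0.51.

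The rises in D12 were spread over the complexes. Uqcrq had 145, 169 and 138 CPM in Torin D12 libraries, against 113, 110 and 119 CPM in DMSO D12 libraries (log2 0.40, SE 0.079, edgeR adjusted p = 0.003). Cox5b had 107, 113 and 121 CPM with Torin and 90, 92 and 81.5 CPM with DMSO (log2 0.37, SE 0.086, edgeR adjusted p = 0.00783). Ndufa7, an accessory subunit of the matrix arm, had 211, 226 and 195 CPM with Torin and 169, 162 and 170 CPM with DMSO (log2 0.33, SE 0.074, edgeR adjusted p = 0.00647). All 3 genes were without overlap. Uqcrc1, a core protein of complex III, rose by 0.34, Atp5mc1 by 0.30, Ndufv1 and Sdhb by 0.24 and 0.23, and Ndufa12 by 0.19.

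Mitochondrially encoded members were mostly lower in D12: 12 of 13 lay below 0, with a median log2 of -0.37 against 0.01 over all genes tested. Without the second Torin D12 library the median was -0.24. The summed share of all counts of these members, before TMM scaling, overlapped between groups. It was 1.261, 1.151 and 1.368% in Torin D12 libraries against 1.248, 1.342 and 1.405% in DMSO D12 libraries. Of the 13, 3 fell, all of complex I, and mt-Cytb rose. That is 23.1% and 7.69%, against 14.6% and 10.8% of all genes tested. mt-Nd5 had 217, 199 and 191 CPM in Torin D12 libraries, against 279, 279 and 276 CPM in DMSO D12 libraries, without overlap (log2 -0.46, SE 0.078, edgeR adjusted p = 0.00115). mt-Nd6 fell by 0.49 (SE 0.1) and mt-Nd2 by 0.29 (SE 0.088), and the mt-Nd2 call was lost without any 1 library of the D12 arm. mt-Cytb had 4520, 4450 and 4040 CPM with Torin and 3340, 3730 and 3720 CPM with DMSO (log2 0.27, SE 0.086, edgeR adjusted p = 0.0376). That call was lost without any DMSO D12 library, the first or the third DMSO D6 or the first or second Torin D12 library.

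The 9 other mitochondrial genes lay below 0 in D12 and did not pass. mt-Co2, which receives electrons from cytochrome c, had 329, 306 and 707 CPM in Torin D12 libraries, against 885, 921 and 664 CPM in DMSO D12 libraries (log2 -0.88, SE 0.38, edgeR adjusted p = 0.112). The third library of each group was the odd one, so the groups overlapped. mt-Co1 had 2010, 1250 and 1400 CPM with Torin and 1830, 1730 and 3200 CPM with DMSO, and here the third DMSO library stood far above the others. Without the third Torin libraries 10 of 13 fell, among them mt-Co2 (log2 -1.36, SE 0.17), mt-Atp6 (-0.61) and mt-Nd4l (-0.58), and the median was -0.45. Of all genes tested 18% fell then. Without the third Torin D12 library alone 6 fell, and without the third Torin D6 library alone 5. mt-Atp8 overlaps mt-Atp6 and mt-Nd4l overlaps mt-Nd4 on shared transcripts, so their values are not independent.

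**Figure D4:**
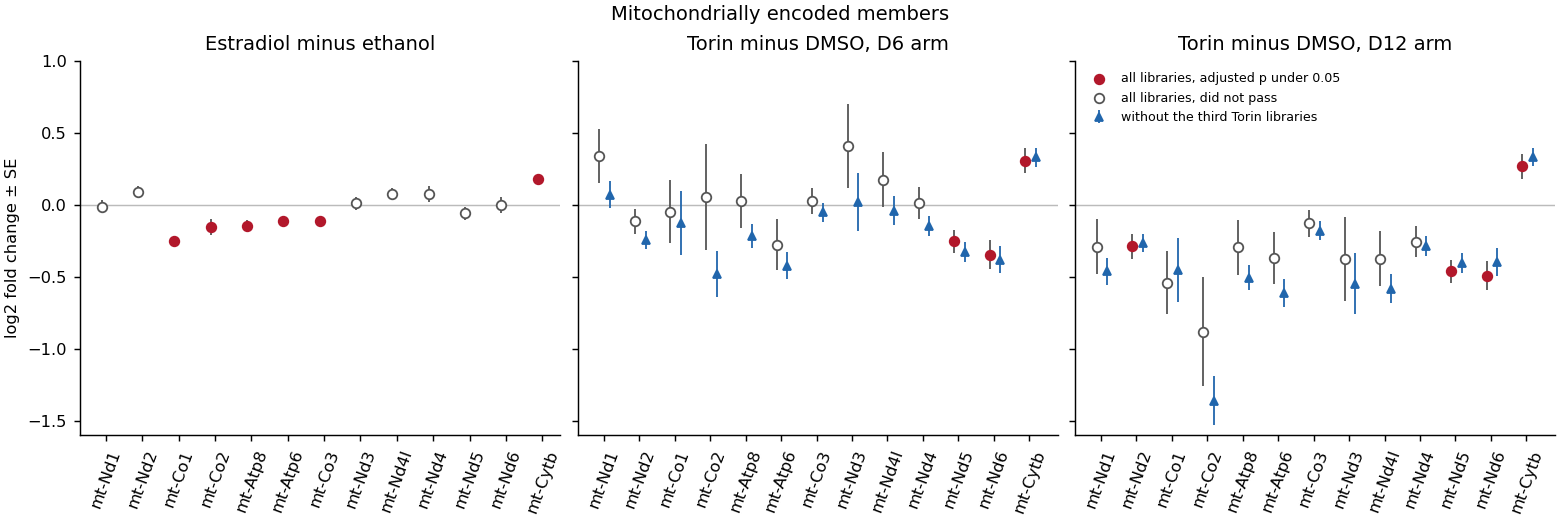
Log2 fold change ± SE of the 13 mitochondrially encoded members in their order on mitochondrial DNA, for estradiol minus ethanol and Torin minus DMSO in both arms; circles use all libraries and triangles omit the third Torin library of both arms. In D12 12 of 13 lie below 0 in either fit, and mt-Cytb lies above 0 in all 3 comparisons.

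The difference of the Torin effects (D12 minus D6) was tested for every gene. Among nuclear-encoded members 3 of 82 were called higher and 3 lower, against 10.6% of all genes tested, 5.03% higher and 5.55% lower. Ndufa4 and Ndufa10, which had risen in D6, were among those with lower effects in D12, by -0.59 and -0.50 on the log2 scale (SE 0.14 each, edgeR adjusted p = 0.0216 and 0.0399). Ndufa7, Ndufb11 and Ndufa5 had higher effects in D12, by 0.43, 0.36 and 0.36 (SE 0.11, 0.093 and 0.094, edgeR adjusted p = 0.024, 0.0293 and 0.0308). Ndufb11, for example, had 139, 153 and 142 CPM in Torin D12 libraries and 141, 143 and 145 CPM in DMSO D12 libraries, which overlapped. Ndufa4 had 214, 231 and 257 CPM with Torin D12, all above its DMSO D12 values of 211, 204 and 205 CPM.

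Limma on the authors' normalized values called none of the differences of these 5 genes. Of 12 single omissions, 10 lost the edgeR call of Ndufa10, 9 of Ndufa5, 8 of Ndufb11, 6 of Ndufa7 and 4 of Ndufa4. Ndufa4 lost it without any 1 of 4 libraries, namely the first DMSO D12, the third DMSO D6 and the first or second Torin D12 library. Counts of higher and lower nuclear-encoded members ran from 0 to 6 and from 0 to 8 over single omissions, and were 9 and 10 without the third Torin library of both arms (9.5% and 8.37% of all genes tested then), with Ndufa4 at -0.51 and Ndufa7 at 0.57. The extremes, 6 and 8, came without the third Torin D12 library. With all libraries the 13 mitochondrially encoded members had a lower effect in D12 (median -0.27), and edgeR called none of them, with 1 at an unadjusted p under 0.05 and 0 called in DESeq2. The median was -0.09, with 12 of 13 below 0, without the third Torin D6 library. Also 12 of 13 lay below 0 without any 1 Torin D12 library or the second Torin D6 library. Leaving out the third Torin libraries, 12 of 13 lay below 0 (median -0.19) and 3 were called lower, and without the second Torin D6 library 1 was.

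**Figure D5:**
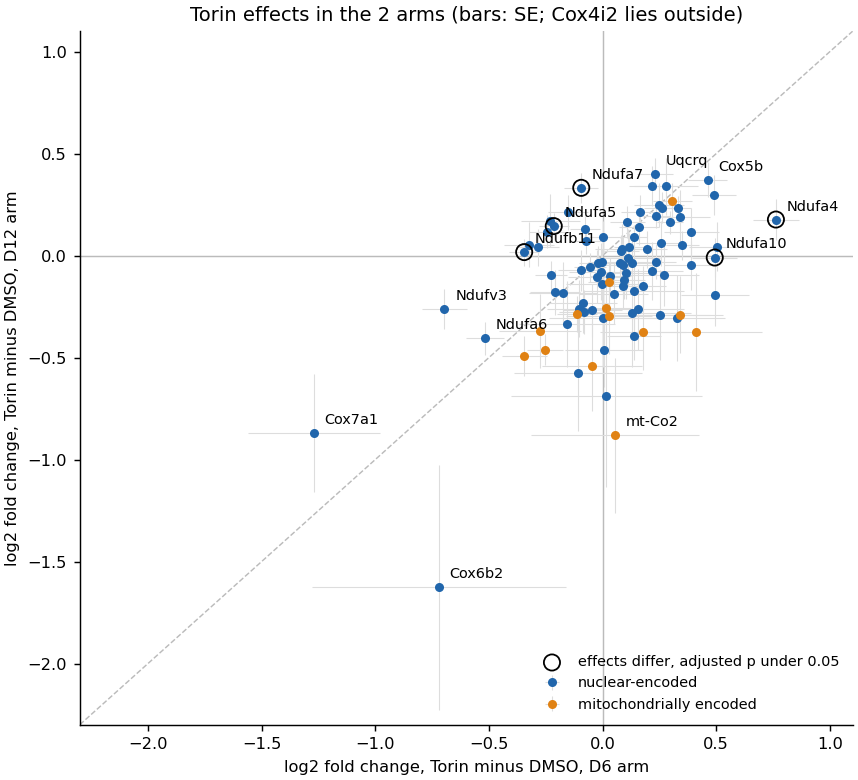
Log2 fold change ± SE of Torin minus DMSO in the D12 arm (vertical) against the D6 arm (horizontal) for tested members, nuclear-encoded in blue and mitochondrially encoded in orange, with the line of equal effect dashed. Rings mark 5 members whose effects differed at an adjusted p under 0.05, and Cox4i2 lies outside the axes at -3.43 and -3.03.

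Between DMSO D12 and DMSO D6 no member was called by edgeR or by DESeq2, beside 0.00552% of all genes tested, with 1 nuclear-encoded member higher and 1 lower at an unadjusted p under 0.05. Groups did not overlap for 9 of 82 nuclear-encoded members and for 12.2% of all genes tested. Without the third Torin libraries of both arms no member was called by edgeR either, and 0.0324% of all genes tested were called higher and 0.0432% lower. Both Torin arms had their own DMSO libraries. Calls shared by D6 and D12 were 7 rises (Atp5mc1, Cox5b, mt-Cytb, Ndufa12, Ndufv1, Sdhb and Uqcrq), 41.2% of the D6 rises and 77.8% of the D12 rises, and 5 falls (Cox4i2, Cox7a1, mt-Nd5, mt-Nd6 and Ndufa6), 41.7% and 71.4%. The overlap of calls over all genes tested was not computed, so these shares have no background. No member rose in one arm and fell in the other. The estradiol experiment shared no library with either. All 3 members that rose under estradiol, mt-Cytb, Ndufv1 and Uqcrq, also rose in both Torin arms, and Cox4i2 and Ndufa6 fell in all 3 comparisons. The estradiol calls of Ndufv1 and Uqcrq and the D12 call of mt-Cytb were lost in the single omissions given above. Ndufv3, Ndufb11 and Ndufb8 fell under estradiol and in D6.

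Genes around the complexes are given from lists of pathway genes. Their counts stand against all genes tested, of which 17.4% rose and 16.6% fell under estradiol, 19.8% and 19.3% in D6, and 10.8% and 14.6% in D12. These shares, without the third Torin libraries, were 19.8% and 21.6% in D6 and 17.5% and 18% in D12. The 7 electron carriers and subunits outside the symbol rule held the largest change, with 3 rises and 1 fall under estradiol, 3 and 2 in D6, and 1 and 1 in D12, and the same Torin counts without the third Torin libraries. Ndufa4l2, a paralogue of Ndufa4 known to be induced by low oxygen, had 0.339, 0.15 and 0.38 CPM in Torin D6 libraries, against 108, 136 and 107 CPM in DMSO D6 libraries, with 24 counts in all against 8787. It fell by 8.63 on the log2 scale in D6 (SE 0.27, edgeR adjusted p = 3.03e-09), by 2.87 in D12 (SE 0.18) and by 1.37 under estradiol (SE 0.056), and the Torin effects differed by 5.76 (SE 0.33, edgeR adjusted p = 1.9e-06). Cycs, the electron carrier cytochrome c, rose in all 3 comparisons: by 0.40 under estradiol, 0.70 in D6 and 0.55 in D12. Its CPM values were 105, 114 and 101 in Torin D6 libraries, against 70.7, 61.4 and 64 in DMSO D6 libraries.

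Assembly factors had calls in both directions, beside 19.8% of all genes tested that rose and 19.3% that fell in D6. Of the complex I factors 1 rose and 2 fell of 14 under estradiol, 4 rose and 4 fell of 16 in D6, and 2 rose and 2 fell in D12, with Ndufaf4 rising each time (log2 0.55, 0.99 and 0.57) and Nubpl, which delivers iron-sulfur clusters, falling each time (-0.30, -0.61 and -0.42). The Nubpl call was lost under estradiol without the first or the third ethanol or the second estradiol library. In D12 it was lost without any 1 DMSO D12 library, the third DMSO D6, the first or the third Torin D12 or the first Torin D6 library. Of the complex IV factors 4 rose and 3 fell of 23 under estradiol, 3 and 4 of 24 in D6, and 3 and 3 in D12. There the copper chaperone Sco2 rose by 1.64 in D6 and 1.05 in D12, and Higd1a, a hypoxia-induced factor, fell by 0.21, 1.23 and 1.09 under estradiol, in D6 and in D12. Complex II factors had 2 rises of 2 tested under estradiol and 1 of 4 in each Torin arm, with no fall. Complex III factors had no call under estradiol (6 tested) or in D12 (9 tested), and 1 rise and 1 fall in D6. Complex V factors had 1 rise and 2 falls of 5 under estradiol, none of 6 in D6 (edgeR), and 2 rises and 1 fall in D12. Leaving the third Torin libraries out, D6 had 3 rises and 4 falls for complex I, 1 and 0 for II, 1 and 2 for III, 5 and 7 of 25 for IV and 0 and 2 for V. The D12 counts were then 4 and 3, 1 and 1, 2 and 0, 5 and 3, and 2 and 1.

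Upstream of the chain, 6 of 14 tricarboxylic acid cycle genes rose in D6 and none fell (median 0.16), against 19.8% and 19.3% of all genes tested, with Mdh2 at 0.66, while D12 gave 1 rise and 1 fall and estradiol 3 and 3. Among 12 genes of pyruvate entry, 2 rose and 4 fell in D6, 2 and 2 in D12, and 2 and 2 under estradiol. Pdk1, a kinase that inhibits pyruvate dehydrogenase, had 51.3, 46 and 55.5 CPM in Torin D6 libraries, against 175, 189 and 190 CPM in DMSO D6 libraries. It fell by 1.86 in D6, 1.13 in D12 and 0.59 under estradiol, and Dlat, a pyruvate dehydrogenase subunit, rose by 0.37 in D6. Coenzyme Q synthesis genes gave 4 rises and 2 falls of 13 in D6, 2 and 2 in D12, and 2 and 2 of 11 under estradiol. In D6 without the third Torin libraries there were 6 rises and 0 falls in the tricarboxylic acid cycle, 3 and 4 in pyruvate entry and 3 and 4 in coenzyme Q synthesis. The D12 counts were then 3 and 4, 4 and 3, and 2 and 6.

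Genes for making the mitochondrially encoded subunits were called mostly as rises in the Torin arms. Of 78 mitochondrial ribosomal protein genes 27 rose and 6 fell in D6 (median 0.20), where 19.8% of all genes tested rose and 19.3% fell. In D12 13 rose and 4 fell (median 0.07), against 10.8% and 14.6% of all genes tested. Under estradiol 9 rose and 4 fell of 77, where 17.4% of all genes tested rose and 16.6% fell. Mrps12 rose by 1.05 in D6 and 0.65 in D12. Of 16 genes of mitochondrial DNA upkeep and transcription 5 rose in D6 and 4 in D12, with no fall, and 2 rose and 1 fell of 15 under estradiol. Lrpprc, which stabilizes mitochondrial mRNA, had 65.6, 60.2 and 77.6 CPM in Torin D6 libraries, against 31.7, 31.5 and 36.5 CPM in DMSO D6 libraries, a rise of 1.03 (SE 0.1, edgeR adjusted p = 1.2e-05). It also rose by 0.53 in D12. Of 13 regulators of mitochondrial biogenesis 6 rose and 1 fell in D6, 2 and 1 in D12 and 1 and 1 under estradiol, with the coactivator Ppargc1b up by 0.82 in D6 and 0.90 in D12. For D6 without the third Torin libraries there were 25 rises and 8 falls of mitochondrial ribosomal protein genes, 6 and 2 of upkeep and transcription genes and 6 and 3 of regulators. The D12 counts were then 18 and 9, 5 and 1, and 3 and 1. Cytosolic ribosomal protein genes gave 24 rises of 80 in D6 and 10 in D12 with no fall, but 26 rises and 1 fall, and 13 rises and 10 falls, without the third Torin libraries.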

How the data were processed

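Estimated counts per gene (estradiol experiment) and counts per gene symbol (Torin experiment) were deposited by the authors, along with normalized values, a signal scaled by factors that differ between genes. Per the submitters' processing notes the tools were Trim Galore, cutadapt, FastQC, MultiQC, kallisto and DESeq2 on GRCm39, without versions or roles. How reads shared with pseudogenes or nuclear copies of mitochondrial DNA were assigned is not given in the sources used here, so levels of genes with such copies are uncertain.

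Estimated counts were rounded. Each experiment was fitted with edgeR 4.0.16 in R 4.3.3: filterByExpr, TMM scaling, group means without covariates, the quasi-likelihood test and Benjamini-Hochberg adjustment. The D6 and D12 groups shared one fit. CPM refer to TMM-scaled totals. The biological coefficient of variation was 5.27% (estradiol) and 20.2% (Torin). Alternatives were DESeq2 1.42.0, RLE scaling, other filters, gene-length offsets, limma 3.58.1 on log2 of the signal plus 1 (mean at least 10), a replicate block and omission of libraries. The fit was tested on simulated data. Correlations of deviations from group means between treated and vehicle libraries of equal replicate number lay between -0.0939 and 0.047.

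Members, lists and tests were chosen with earlier results of these data known. Named are, per comparison, called members of lowest p in each direction, alternative isoforms with their partners, all Sdh genes, members whose Torin effects differed, and the called genes of lowest p of each list. Other members are given by their log2 value or count. Ndufb1 had no row under that symbol in the estradiol table. Promoters were matched by symbol or RefSeq synonym. The Torin samples that the series text counts beyond 12 were not analysed here. Results of 1 member are not reported here, although counts include it.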

Additional observations from a re-analysis of the deposited data

Results flagged for a closer look

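The effect of Torin differed between the D12 and D6 arms for 5 members given here, by edgeR's test of the difference itself. It was lower in D12 for Ndufa4 (log2 difference -0.59) and Ndufa10 (-0.50). It was higher in D12 for Ndufa7 (0.43), Ndufb11 (0.36) and Ndufa5 (0.36). Calls were lost in 4 (Ndufa4) to 10 (Ndufa10) of 12 single omissions. Among nuclear-encoded members 3.66% were called in each direction, against 5.03% higher and 5.55% lower of all genes tested. Length, start and batch of treatment cannot be told apart between the arms.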

How the results depend on the processing

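No call of a named gene changed its sign in any alternative, but medians over members did. The nuclear-encoded median was -0.04 in D6 without the third Torin D6 library, against 0.09 with all libraries, and 0.02 in D12 without the first Torin D12 library, against -0.04. The counts of nuclear-encoded and mitochondrially encoded members called in each comparison moved by over 1.5 times as follows. Under estradiol, omitting the filter gave 2 mitochondrial rises and 3 falls, limma gave 0 nuclear rises, 11 falls, 0 mitochondrial rises and 0 falls, gene-length offsets gave 1 nuclear rise, 14 falls and 1 mitochondrial fall, and DESeq2 gave 1 nuclear rise. In D6, limma gave 0 mitochondrial falls, and the 2 groups fitted alone gave 6 nuclear and 1 mitochondrial fall. In D12, omitting the filter or using limma gave 4 nuclear rises. For the difference of the Torin effects, omitting the filter gave 1 nuclear rise, limma 0 rises and 0 falls, and gene-length offsets 1 fall. Without the third Torin libraries of both arms the counts were 20 nuclear and 5 mitochondrial falls in D6, 16 nuclear rises, 22 nuclear and 10 mitochondrial falls in D12, and 9 rises, 10 falls and 3 mitochondrial falls for the difference.

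Deviations of treated and vehicle libraries of equal replicate number correlated between -0.0939 and 0.047, which cannot exclude a pairing. Links between D6 and D12 libraries of equal number were not examined. With the replicate block D12 had 0 mitochondrial rises, and the difference 0 nuclear rises and 1 fall. Over single omissions, nuclear rises and falls ran from 0 to 3 and from 17 to 22 under estradiol, from 11 to 19 and from 5 to 13 in D6, from 4 to 13 and from 2 to 10 in D12, and from 0 to 6 and from 0 to 8 for the difference. Mitochondrial rises and falls ran from 1 to 2 and from 1 to 5 under estradiol, from 1 to 2 and from 0 to 3 in D6, from 0 to 1 and from 2 to 6 in D12, and the falls from 0 to 1 for the difference.

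With 3 libraries per group, small changes of the Torin experiment were hard to detect, since its spread between libraries was larger than in the estradiol experiment.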
